A study of Mus musculus with 11 samples.

Results

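An antisense oligonucleotide against Malat1, joined to an antibody that does not bind the transferrin receptor, was compared with an antibody that binds the receptor and carries no oligonucleotide. The conjugate is labelled nonTV:Malat1 (its libraries are titled RSV-ASO) and the control is labelled ATV:BACE1. Libraries were chosen by these treatment labels, 3 of each, and make up 6 of the 11 single-nucleus RNA libraries of the study and 58832 of its 110304 nuclei. All 6 came from brain tissue of mice homozygous for a human transferrin receptor knock-in (hTfR KI HOM), so the controls carry the knock-in too. Each mouse was dosed intravenously 4 times, at 60 mg per kg for nonTV:Malat1 and at 57 mg per kg for ATV:BACE1 by the sample labels, while the study's design text gives weekly dosing at 60 mg per kg for both, so the sources differ on the control's dose. Tissue was taken 72 hours after the last dose. Replicate 1 of each group was a female of 2.33 months, replicate 4 a male of 2.57 months and replicate 5 a male of 2.33 months. The deposited nucleus table puts the replicate 1 libraries in batch 1, replicate 4 in batch 3 and replicate 5 in batch 4, so every batch holds 1 library of each group, together with its sex and age.

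Malat1 is a long non-coding RNA that is retained in the nucleus and is among the most abundant transcripts of nuclear preparations. An antisense oligonucleotide of the RNase H type pairs with its target RNA, and the enzyme then cuts that RNA. The transferrin receptor carries iron-loaded transferrin into cells and is dense on brain capillary endothelium, which is why receptor-binding antibodies are used to move cargo from blood into brain. The Malat1 gene lies on chromosome 19, from 5795690 to 5802672 on the minus strand of GRCm38 (mm10), is annotated as a long intergenic non-coding RNA and has the identifier ENSMUSG00000092341.3. The 2 treatments differ in the oligonucleotide, in receptor binding and in what the antibody recognises, and these differences cannot be told apart here. The labels number the libraries as replicates with a sex and age each and do not name the animals, and no source used here gives the oligonucleotide's sequence.

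The 6 libraries held 8444 to 11480 nuclei and 33235994 to 41735849 unique molecular identifiers (UMIs, each standing for 1 captured RNA molecule). Nuclei called as doublets by the authors made up 10.8%, 10.8% and 16.0% of the control libraries and 9.15%, 8.92% and 7.70% of the nonTV:Malat1 libraries. The authors' class of each nucleus was used, and 8 of the 10 named classes had enough nuclei for a test. Summed marker genes, in CPM (UMI counts scaled to one common library total), gave the vascular endothelium its own markers at 12300 to 15150 in the control and 14390 to 15750 in the treated libraries, and oligodendrocytes theirs at 11290 to 12500 and 11710 to 13410. Some labels fitted less well. Nuclei labelled pericytes had endothelial markers at 10060 to 12690 in the controls against 6200 to 6446 for pericyte markers, nuclei labelled leptomeningeal cells had astrocyte markers at 2639 to 3015 against 1704 to 2138 for their own, and nuclei labelled glia had choroid plexus markers at 3663 to 5907. Nuclei labelled vascular smooth muscle had pericyte markers at 7640 to 8550 against 403.5 to 2443 for their own. Those 4 names are kept below only as the authors' labels. The sample labels give the region as posterior and the deposited nucleus table gives it as cortex, with C57BL/6J as the strain in place of the knock-in.

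Malat1 was lower with nonTV:Malat1 in the vascular endothelium and in oligodendrocytes, to 75.7% and 80.1% of the control level, and its level in neurons and astrocytes was close to that of the control. The differences were small beside the gene-wide correction: in 0 of the 8 classes did Malat1 pass the adjusted p of 0.05 over all genes of the class in edgeR's quasi-likelihood test with batch as a block, while 2 of 8 passed when the p was adjusted over the 8 classes. From the lowest to the highest log2 change, the classes ran from vascular endothelium through oligodendrocytes, microglia, pericytes and glia to leptomeningeal cells, neurons and astrocytes.

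In the vascular endothelium, the capillary lining that meets the injected conjugate first, Malat1 made up 5.98%, 6.07% and 6.68% of UMIs in control replicates 1, 4 and 5. In the nonTV:Malat1 libraries of the same replicate numbers it made up 4.50%, 4.42% and 5.24%. All 3 treated libraries lay below all 3 control libraries, and the 2 groups did not overlap. The means were 6.24% ± 0.378 (SD, n = 3) and 4.72% ± 0.453 (SD, n = 3), so that 75.7% of the control level was present. The fitted log2 change was -0.44 (SE 0.112), a change of -26.3%, with an adjusted p of 0.286 over 4449 genes and of 0.00308 over the 8 classes in edgeR. Malat1 ranked 6 of 4449 genes by p in this class, where edgeR called 0 genes (0.0% of those tested) and 195 (4.38%) had an unadjusted p under 0.05. Without the block the p adjusted over the 8 classes was 0.149, and without ATV:BACE1 replicate 4 it was 0.0747. These values rest on 58 to 134 nuclei per library. In the same nuclei, neuron markers averaged 1329 CPM in the control and 1056 in the treated libraries and endothelial markers 13450 and 14970. Astrocyte markers averaged 821.2 and 715.6, and oligodendrocyte markers were higher in the treated libraries, at 869 and 1040. Neurons (7.62%), astrocytes (10.1%) and oligodendrocytes (9.04%) all had a larger control Malat1 share than the endothelium. The part of these markers in the Malat1 difference was not tested.

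Oligodendrocytes, the myelin-forming glia, had Malat1 at 8.23%, 9.43% and 9.46% of UMIs in the control libraries. The treated libraries had 6.48%, 7.59% and 7.64%. The groups again did not overlap, and replicate 1 was the lowest library of its group on both sides. From means of 9.04% ± 0.703 (SD, n = 3) and 7.24% ± 0.653 (SD, n = 3), 80.1% of the control level was present. The log2 change was -0.35 (SE 0.109, adjusted p = 1.00 over 12362 genes and 0.0119 over the 8 classes in edgeR), or -21.4%, and without the block the p adjusted over the 8 classes was 0.313. That p also missed 0.05 with nuclei under 1000 UMIs left out (0.0693) and with single libraries left out: ATV:BACE1 replicate 4 (0.178), replicates 1 and 5 of nonTV:Malat1 (0.200 and 0.0864) and OTV:Malat1 replicate 5 (0.0508). Malat1 ranked 23 of 12362 genes by p, and 3 genes (0.0243%) passed in this class. With 1004 to 1648 nuclei per library, this class rests on far more nuclei than the endothelium does.

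Microglia, the resident immune cells of the brain, had 4.67%, 5.78% and 6.10% in the control and 4.14%, 4.92% and 5.45% in the treated libraries. Each treated library lay below the control of its own batch, but the groups overlapped. Here the fit gave a log2 change of -0.21 (SE 0.0962, adjusted p = 0.0939 over the 8 classes in edgeR). That p was 0.338 without the block, and it passed in the blocked fit of the 6 libraries alone (0.00899), without the filter on low counts (0.0292) and without ATV:BACE1 replicate 1 (0.00409). Nuclei labelled pericytes had 7.70%, 7.48% and 7.88% against 6.03%, 6.65% and 7.51%, a log2 change of -0.19 (SE 0.135, adjusted p = 0.335 over the 8 classes), which was -0.31 without nonTV:Malat1 replicate 4 and -0.09 without replicate 1 of that group. Nuclei labelled glia had 7.11%, 7.27% and 8.90% against 6.29%, 7.05% and 7.92%, a log2 change of -0.14 (SE 0.185, adjusted p = 0.709). Both of these classes were also lower in 3 of 3 batches, with overlapping groups, and neither passed either test.

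Neurons, which made up most nuclei, had 7.32%, 7.30% and 8.25% of UMIs from Malat1 in the control and 7.37%, 7.41% and 8.33% in the treated libraries, so each treated library was slightly above its batch's control. The fitted log2 change was 0.02 (SE 0.0874, adjusted p = 1.00 over all genes). Astrocytes had 8.80%, 10.6% and 10.96% against 9.64%, 10.8% and 11.05%, with a log2 change of 0.06 (SE 0.153, adjusted p = 0.911 over the 8 classes). In both classes the spread between replicates was larger than the difference. Nuclei labelled leptomeningeal cells gave 0.01 (SE 0.0949). Over all nuclei of a library, Malat1 was 7.45%, 7.54% and 8.38% in the control and 7.49%, 7.61% and 8.39% in the treated libraries, and the log2 change was -0.01 (SE 0.120, adjusted p = 0.997). In 2 small classes no test was made: in nuclei labelled vascular smooth muscle the shares were 10.4%, 9.39% and 8.89% against 8.46%, 11.2% and 10.5% (14 to 42 nuclei per library), and in perivascular macrophages 4.46%, 5.28% and 6.01% against 4.39%, 6.03% and 5.78% (8 to 14 nuclei). In neither did the libraries fall to one side.

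**Figure D1:**
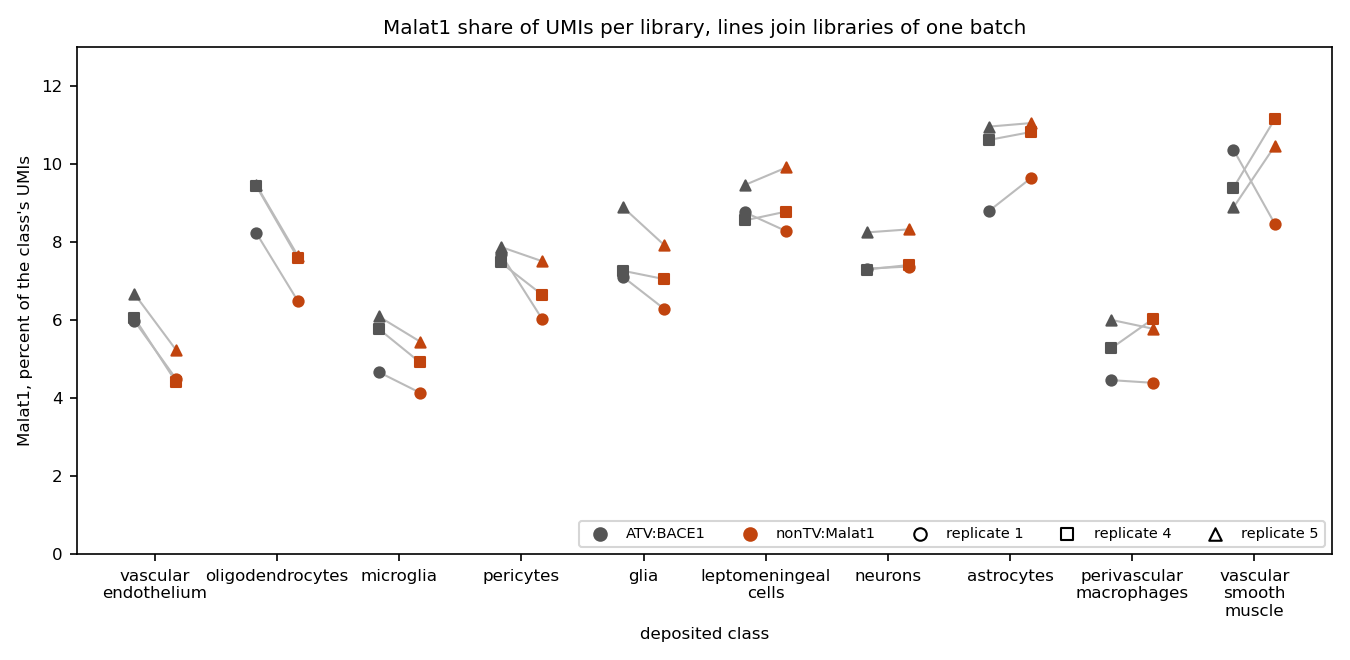
Malat1 as a percentage of UMIs in each class; each point is 1 library, lines join the control and the nonTV:Malat1 library of 1 batch. In the vascular endothelium and oligodendrocytes all 3 lines fall and the groups do not overlap, while in neurons the lines are almost level.

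Within batches the ratios were narrow. The log2 ratio of treated to control Malat1 shares ran from -0.46 to -0.35 in the vascular endothelium, from -0.34 to -0.31 in oligodendrocytes and from -0.23 to -0.16 in microglia. In pericytes it ran from -0.35 to -0.07 and in glia from -0.18 to -0.04. Malat1 was thus lower in every batch in 5 of 8 classes, and in 0 of 3 batches in neurons and in astrocytes.

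Each class was also set against the neurons of its own library, as the log2 CPM of the class minus that of the neurons. The test then asks whether the difference from the control is larger in that class than in neurons. Neurons were made the reference with earlier results of these data known, and the sizes nearly repeat those above, so the test adds no independent support to them. The difference was larger, over the 7 classes tested, in 3: microglia (-0.21, SE 0.0416, adjusted p = 2.27e-04 over the classes), oligodendrocytes (-0.35, SE 0.0776, adjusted p = 2.27e-04) and the vascular endothelium (-0.45, SE 0.136, adjusted p = 0.00731), all by limma with batch as a block. Without the block 0 of the 3 passed over the classes (0.119, 0.327 and 0.0631 in that order). With nuclei under 1000 UMIs left out the endothelium alone passed (0.0263), beside 0.596 for microglia and 0.0608 for oligodendrocytes. The endothelium missed the threshold without ATV:BACE1 replicate 1 (0.0745) or 4 (0.0722). Over all genes of a class, Malat1 passed in microglia alone, with an adjusted p of 0.0223 as 1 of 6 genes called of 3400 (0.176%). That call was lost without the block, with called doublets left out (0.273), with nuclei under 1000 UMIs left out (0.883) and with a prior count of 0.5 (0.163), and also when ATV:BACE1 replicate 1, nonTV:Malat1 replicate 1 or 5, OTV:Malat1 replicate 1 or either Malat1 ASO library was left out; without OTV:Malat1 replicate 4 or 5, 2 classes passed. In oligodendrocytes Malat1 was the gene of lowest p of 12359, with an adjusted p of 0.662 and 0 genes called (0.0%); with called doublets left out it passed at 0.0430, as 1 of 41 genes called. The pericyte difference from neurons was -0.20, the glia difference -0.15 and the astrocyte difference 0.06, none of them past the test. In the microglia, neuron and oligodendrocyte markers averaged 1804 and 2905 CPM in the control and 1346 and 2490 in the treated libraries. Astrocyte markers averaged 697.5 CPM in the control and 750.8 in the treated microglia. The part of these markers in the microglial Malat1 difference was not tested.

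The remaining 2 groups of the study give scale to these values. OTV:Malat1 carries the same kind of oligonucleotide on a receptor-binding vehicle (60 mg per kg, 3 libraries) and Malat1 ASO is the unconjugated oligonucleotide (2.5 mg per kg, 2 libraries). Both were fitted against the same 3 control libraries, so the contrasts share their controls, and the groups were not tested against each other. In the vascular endothelium the log2 change was -0.44 (SE 0.112) for nonTV:Malat1, -0.81 (SE 0.133) for Malat1 ASO and -1.85 for OTV:Malat1. In oligodendrocytes it was -0.35 (SE 0.109), 0.09 (SE 0.126) and -2.44 in the same order. Microglia gave -0.21, -0.01 and -0.92, and pericytes -0.19, -0.40 (SE 0.157) and -0.83. In neurons the values were 0.02 for nonTV:Malat1 and -0.70 for OTV:Malat1, and in astrocytes 0.06 and -1.55. The endothelium was thus lower than the control with all 3 treatments, whereas the oligodendrocyte value was below 0 with both conjugates and above 0 with the unconjugated oligonucleotide.

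**Figure D2:**
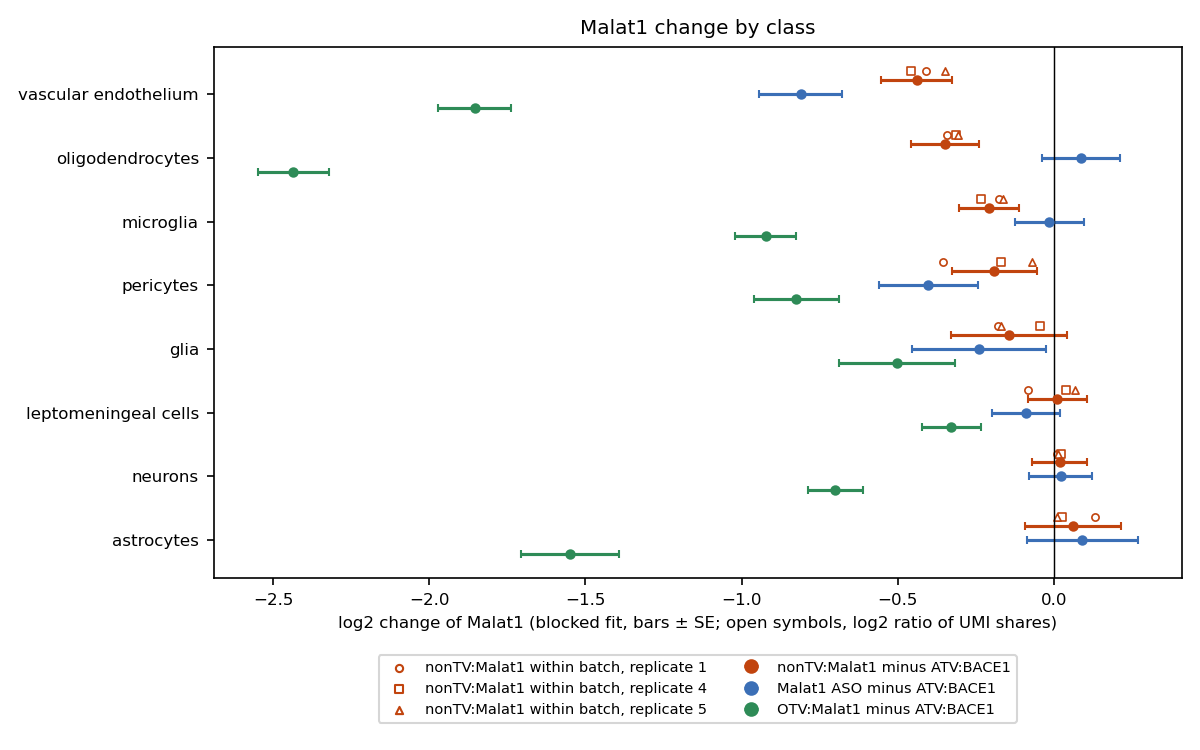
Log2 change of Malat1 by class for the 3 treatments against the shared ATV:BACE1 libraries; filled points with bars are the blocked fit ± SE, open symbols the ratio of UMI shares within each batch for nonTV:Malat1. The fitted nonTV:Malat1 values lie between -0.44 and 0.06, the within-batch ratios between -0.46 and 0.13, and the OTV:Malat1 values reach -2.44 in oligodendrocytes.

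A mean difference can come from all nuclei or from some of them, so single nuclei were compared after each was thinned to 1000 UMIs, leaving out shallower ones. A nucleus was counted as low when its Malat1 count was at or below the 5th percentile of the control nuclei of its class. In the vascular endothelium 15.0%, 9.09% and 4.44% of control nuclei were low, against 41.9%, 46.4% and 22.5% of treated nuclei. These shares rest on 22 to 60 control and 28 to 86 treated nuclei per library. The median count per 1000 UMIs moved from 54.5, 63.0 and 63.0 to 43.5, 44.5 and 51.0. The shift therefore appeared in the middle of the distribution as well as in its low tail.

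Low nuclei made up 10.7%, 4.17% and 3.22% of control oligodendrocytes and 37.2%, 22.7% and 23.98% of treated ones, with medians of 79.0, 90.5 and 92.0 against 62.0, 73.0 and 74.0 counts. The same order was seen in nuclei labelled pericytes, with 5.68%, 6.52% and 6.02% against 30.6%, 30.3% and 11.4%. Their means of 6.08% and 24.1% were 5.68% and 13.1% when nuclei were thinned to 500 UMIs. Nuclei labelled glia had 9.19%, 5.05% and 5.66% against 18.3%, 16.6% and 12.5%. In these 4 classes every treated library lay above every control library, which gives a 2-sided exact permutation p of 0.1, the smallest that 3 against 3 libraries allow. This permutation does not use the pairing by batch, and the threshold behind it came from the control libraries alone. In neurons the mean share was 5.43% in the control and 6.56% in the treated libraries (exact permutation p = 0.3), and it was higher in 3 of 3 batches. In astrocytes it was 7.24% and 6.27% (exact permutation p = 1), though higher in 2 of 3 batches. Microglia gave 15.3% and 16.9% (exact permutation p = 1), with only 20 to 63 nuclei kept per library, so a share of low nuclei could not be told apart between the groups there at this depth. The difference of 1.57 percentage points was 13.4 without ATV:BACE1 replicate 1, -1.11 without nonTV:Malat1 replicate 1, and 6.11 without thinning. Averaged over the 8 classes, the share was 7.89% ± 4.46 (SD, n = 3) in the control and 17.9% ± 4.66 (SD, n = 3) in the treated libraries, a difference of 10.1 percentage points (exact permutation p = 0.1). Thinning removed many nuclei in the small-RNA classes: 35.8% to 67.2% of endothelial nuclei and 37.7% to 69.5% of oligodendrocytes from the treated libraries were too shallow. Without thinning, as shares of all UMIs of a nucleus, the mean of low nuclei was 5.62% and 28.2% in the endothelium and 6.02% and 30.2% in oligodendrocytes.

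For the vascular endothelium, the other treatments show the same measure over a wider range: 71.2% and 57.1% of nuclei were low in the 2 Malat1 ASO libraries, and 90.5%, 97.6% and 87.2% in the OTV:Malat1 libraries. For oligodendrocytes the Malat1 ASO libraries had 4.69% and 4.71%, within the range of the control libraries.

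**Figure D3:**
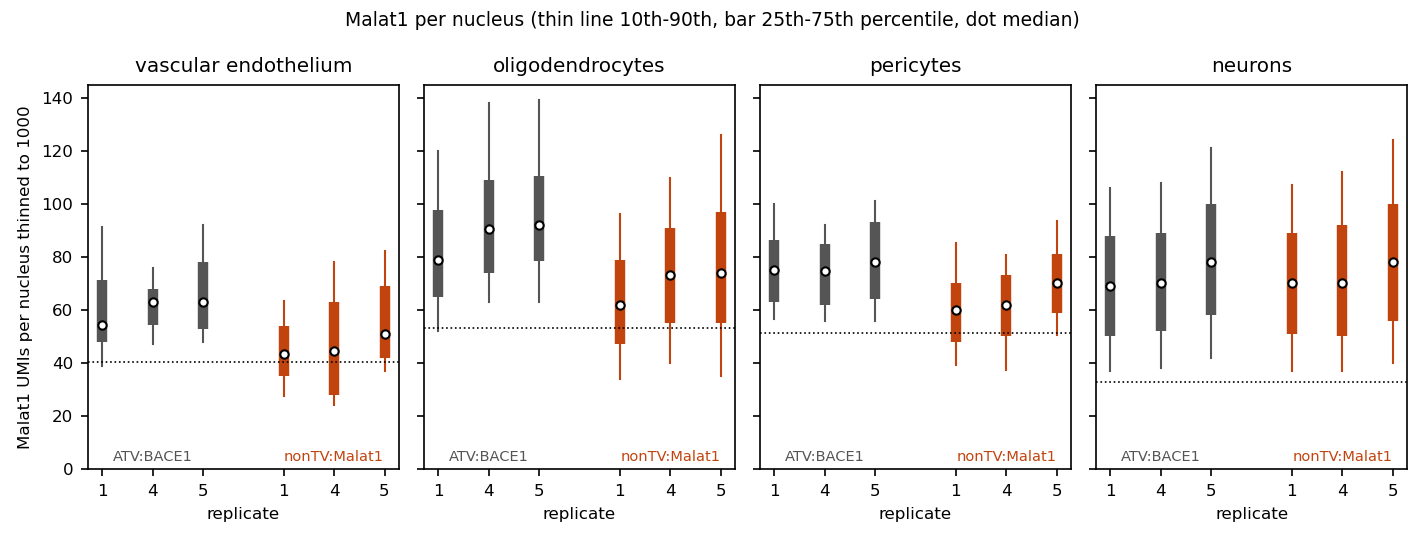
Malat1 counts per nucleus after thinning to 1000 UMIs, by library; dots are medians, bars the 25th to 75th and thin lines the 10th to 90th percentile of nuclei, and the dotted line is the threshold for a low nucleus. In the vascular endothelium and oligodendrocytes the nonTV:Malat1 libraries sit lower than the control libraries, and in neurons they do not.

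Most oligodendrocytes (90.7%) fell in 1 of the authors' clusters, cluster 3. Inside it the within-batch log2 ratios were -0.42, -0.37 and -0.36. The oligodendrocytes outside it, 75 to 126 nuclei per library, gave 0.10, -0.05 and -0.15. Over all nuclei of cluster 3, whatever their class label, the fitted log2 change of Malat1 was -0.41 (SE 0.117, adjusted p = 0.999 over all genes in edgeR, where 0.0% of genes were called). Cluster 7, where 99.0% of the microglia lay, gave -0.22 over all its nuclei (SE 0.176, adjusted p = 0.957 in edgeR). It also held nuclei of other labels. Its control Malat1 shares were 5.32%, 6.46% and 8.04%, beside 4.67%, 5.78% and 6.10% in microglia. The 1 called gene of this cluster, 0.0122% of those tested, was Nwd2, with a log2 change of -2.31 (adjusted p = 5.41e-04 in edgeR). Malat1 was also lower in 3 of 3 batches in clusters 1, 6, 8 and 9, and not in clusters 0, 2, 4 and 5.

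Which other genes differed was asked class by class and over all nuclei. Over all nuclei 0 of 21409 genes passed (0.0%, edgeR), with 1130 (5.28%) at an unadjusted p under 0.05, and DESeq2 called 1. Over the 8 classes together 20 of 77917 gene tests passed (0.0257%), with 3458 (4.44%) at an unadjusted p under 0.05, and DESeq2 called 7. Where nothing differs, a share of about 0.05 of tests falls under that threshold. All 12 calls in microglia (0.353% of 3400 genes) were lower with nonTV:Malat1. The 4 calls in pericytes (0.0646% of 6189), the 1 in leptomeningeal cells (0.0153% of 6529) and the 3 in oligodendrocytes were higher. No gene passed in the vascular endothelium, in neurons (775 or 3.74% at an unadjusted p under 0.05), in astrocytes (513, 3.65%) or in glia (581, 5.68%). DESeq2 called 5 genes in neurons and 0 in the other three. Without the batch block 0 of these 20 passed, and with called doublets left out 5 genes passed, 2 of them among the 20 (Ntm and Prg4). Leaving out 1 library gave from 4 genes (without ATV:BACE1 replicate 4) to 72 (without Malat1 ASO replicate 5), with 71 without the other Malat1 ASO library, 46 without nonTV:Malat1 replicate 5, 43 without ATV:BACE1 replicate 5 and 32 without OTV:Malat1 replicate 1. Counts also fell to 13, 9 and 8 without ATV:BACE1 replicate 1, nonTV:Malat1 replicate 1 and nonTV:Malat1 replicate 4.

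The smallest p in microglia belonged to Ntm. This gene, which encodes the adhesion protein neurotrimin, had 178, 557 and 513 CPM in the control and 71.2, 152 and 112 in the treated libraries. No treated library reached the lowest control, and the log2 change was -1.84 (SE 0.304, adjusted p = 5.59e-04 in edgeR). It rests on 111 control and 34 treated UMIs in all, and it passed in 9 of 10 ways of processing and with each of the 11 libraries left out in turn. Ntm was also lower in the vascular endothelium, at 400 and 168 CPM (log2 change -1.26, adjusted p = 0.283 in edgeR). It passed there in the blocked edgeR fit of the 6 libraries alone (-1.24, adjusted p = 0.00688). In nuclei labelled pericytes it was higher, at 246 and 369 CPM. Plcb1, a phospholipase C that signals below G protein-coupled receptors, had 234, 270 and 311 CPM against 85.5, 102 and 112, a log2 change of -1.45 (adjusted p = 0.0401). It passed in 5 of 10 ways of processing and with 6 of the 11 libraries left out in turn. Dlg2, a scaffold protein of the postsynaptic density, had 647, 881 and 808 CPM against 335, 437 and 522, again without overlap (log2 change -0.89, adjusted p = 0.0401). It passed in 2 of 10 ways of processing and in 5 of 11 fits with a library left out.

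Several other calls in this class rested on few UMIs or lay in some batches only. Mgat4c, an N-glycan-branching transferase homologue, was counted 6, 32 and 12 times in the control and 2, 3 and 2 times in the treated libraries, a ratio of 0.116 with a 95% counting interval of 0.0445 to 0.258 before scaling. Slc35f1 went from 5, 26 and 9 UMIs to 2, 3 and 1, a ratio of 0.125 (0.0432 to 0.296). Tenm3, a teneurin adhesion protein, went from 6, 29 and 23 to 8, 2 and 1, so most of its difference lies in batches 3 and 4. Asic2, an acid-sensing ion channel, was 78.1 CPM in control replicate 1 and 85.4 in its treated partner, against 782 and 91.4 in replicate 4 (adjusted p = 0.00375), and it passed in 7 of 10 ways of processing and 9 of 11 fits with a library left out. Gpc5, a glypican, was also higher in the treated library of replicate 1 and lower in the other two. For Lsamp, Lrp1b, Dscaml1 and Slc24a2, all 3 batches were lower but the groups overlapped. Their log2 changes ran from -1.41 for Dscaml1 to -0.89 for Slc24a2. For Asic2, Tenm3, Mgat4c and Lsamp, every OTV:Malat1 and Malat1 ASO library was also below the control of its batch. Asic2 had 38.6, 124 and 153 CPM with OTV:Malat1 and 18.8 and 61.55 with Malat1 ASO. Lower values of these genes were thus not particular to nonTV:Malat1. For the other genes called in this class, not every such library was below its control.

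All 12 of these genes had a higher control level in another class than in microglia: 4 were highest in neurons, 4 in astrocytes, 3 in oligodendrocytes and 1 in the vascular endothelium. Ntm, at 416 CPM in control microglia, was at 5433 in control astrocytes. Markers of other cell types moved in the same nuclei, some lower and some higher. Summed neuron markers were 1595 to 1911 CPM in control microglia and 1025 to 1541 in treated microglia, without overlap, while the microglia's own markers were 3691 to 4754 and 4238 to 4906. Oligodendrocyte markers in microglia were 2721 to 3118 and 1844 to 3604. Astrocyte markers there were 611.1 to 823.6 and 609.0 to 861.6, with means of 697.5 and 750.8. Endothelial markers averaged 83.98 and 111.2 and choroid plexus markers 1573 and 2086. Ependymal markers were 17.97 to 78.05 and 136.7 to 152.3, without overlap. The part of these markers in the 12 calls was not tested. Called doublets made up 1.67% to 2.35% of control and 1.18% to 2.17% of treated microglia.

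In nuclei labelled pericytes 3 of the 4 higher genes are described here. Kcnip4, a potassium channel-interacting protein, had 317, 299 and 207 CPM in the control and 760, 2083 and 323 in the treated libraries (log2 change 1.62, adjusted p = 0.0101 in edgeR). Cntnap2, a neurexin-family adhesion protein, had 90.01, 111 and 67.2 against 210, 1000 and 117 (log2 change 1.87, adjusted p = 0.00857). For both, replicate 4 of nonTV:Malat1 stood far above the rest, and that library had only 40 nuclei in the class. Cntn5, a contactin, was counted 4, 6 and 7 times in the control (17.1, 51.3 and 36.2 CPM) and 78, 14 and 11 times in the treated libraries (227, 146 and 51.6 CPM). Most of its treated UMIs came from replicate 1, and the groups did not overlap. The log2 change of 2.22 (adjusted p = 0.0268) was 0.99 without nonTV:Malat1 replicate 1 and 2.96 without replicate 5 of that group. These 3 had their highest control level in neurons. Neuron markers summed to 760 to 900 CPM in control and 937 to 2604 in treated pericytes, while pericyte markers were 6200 to 6446 and 6270 to 6431. Oligodendrocyte markers went the other way, from 537.3 to 891.5 in the control to 395.8 to 543.7 in the treated libraries. Astrocyte markers were 449.5 to 720.1 and 666.9 to 773.4. The part of these markers in the pericyte calls was not tested. Called doublets were up to 7.77% of control and up to 16.8% of treated nuclei in this class. With called doublets left out, 0 pericyte genes passed, and the log2 changes of Kcnip4 and Cntnap2 were -0.11 and 0.29. Without nonTV:Malat1 replicate 4 they were 1.14 and 1.10.

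**Figure D4:**
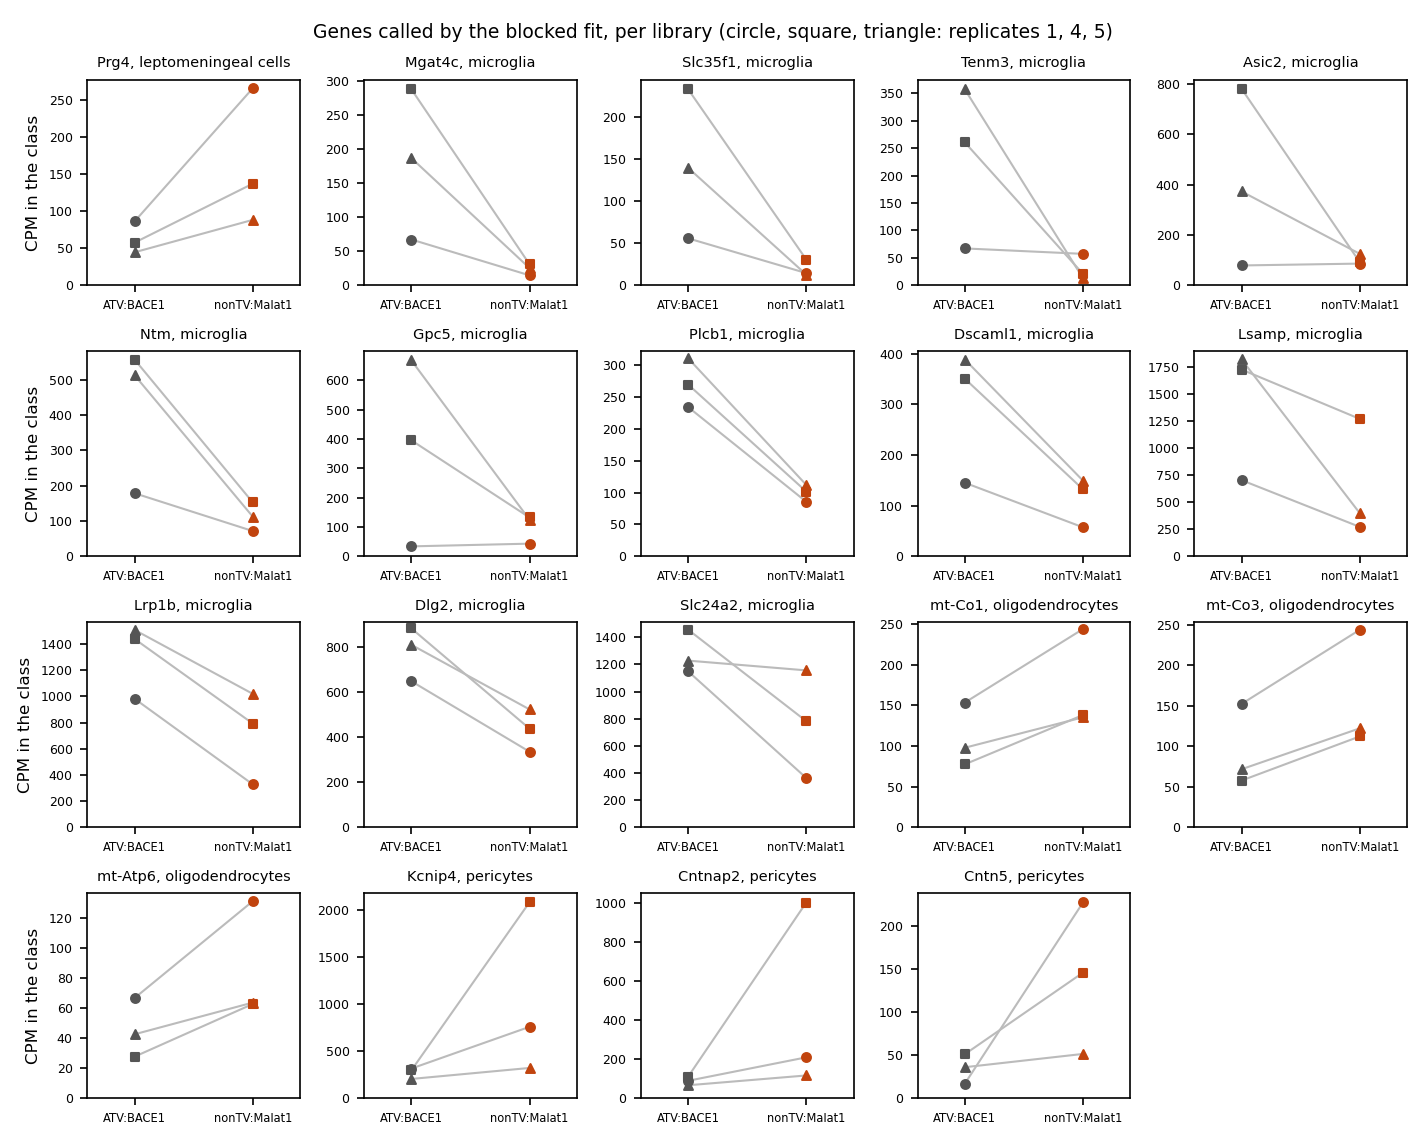
19 of the 20 gene and class pairs with an adjusted p under 0.05, plotted as CPM per library on linear axes from 0, with lines joining the control and nonTV:Malat1 libraries of a batch. Microglial genes lie lower and pericyte, leptomeningeal and oligodendrocyte genes higher with nonTV:Malat1, and for 9 of the 19 the groups overlap.

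**Figure D5:**
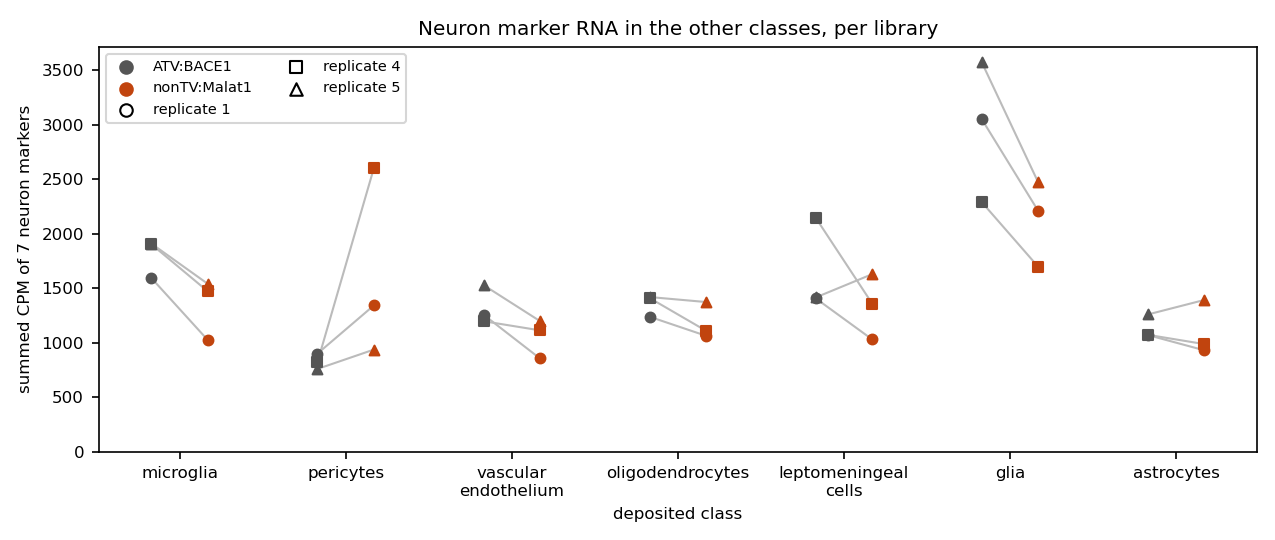
Summed CPM of neuron marker genes in each class that is not neuronal, by library. The treated microglia and glia libraries lie below the control of their batch, and the treated pericyte libraries above it.

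Prg4, which encodes the lubricating proteoglycan lubricin, was the single call in nuclei labelled leptomeningeal cells. Its level was 86.0, 57.3 and 44.2 CPM in the control and 266, 137 and 88.0 in the treated libraries, the lowest treated library lying just above the highest control. The log2 change was 1.41 (SE 0.271, adjusted p = 0.0305 in edgeR), from 47 and 161 UMIs in all. Unlike the microglial and pericyte calls, Prg4 was highest in the class where it was called. It passed in 7 of 10 ways of processing, among them with called doublets left out (adjusted p = 0.0189), and in 5 of 11 fits with a library left out. It did not pass in DESeq2 (adjusted p = 1.00) or with nuclei under 1000 UMIs left out (0.217). Malat1 itself gave a log2 change of 0.01 there, and the Malat1 ASO libraries had Prg4 at 268 and 73.6 CPM.

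In oligodendrocytes the called genes were 3 mitochondrially encoded transcripts of the respiratory chain and ATP synthase. The level of mt-Co3 was 152, 57.8 and 71.8 CPM in the control and 244, 112 and 122 in the treated libraries, higher in each batch with overlapping groups (log2 change 0.75, adjusted p = 0.0452). For mt-Co1 the values were 154, 77.6 and 98.0 against 244, 138 and 135 (log2 change 0.64, adjusted p = 0.0452), and for mt-Atp6 66.8, 27.8 and 42.7 against 131, 62.8 and 63.8 (log2 change 0.90, adjusted p = 0.0452, all in edgeR). Of 10 ways of processing, mt-Co3 passed in 5, mt-Co1 in 4 and mt-Atp6 in 4. With a library left out they passed in 6, 7 and 7 of 11 fits. None passed in DESeq2 (adjusted p = 0.29, 0.29 and 0.926 in that order). Of 9 mitochondrial genes tested in this class 8 were above 0, with a median log2 change of 0.78. Values above 0 were also seen elsewhere: over all nuclei 13 of 13 mitochondrial genes were above 0, with a median of 0.50 and 0 called, and in neurons, where Malat1 gave 0.02, 11 of 13 were, with a median of 0.45. Oligodendrocyte markers summed to overlapping ranges in the 2 groups, as given above. In a fit of the 6 libraries alone, 10 genes passed over all nuclei (0.0489%), all of them higher: mt-Nd2, mt-Co1, mt-Co2, mt-Atp6, mt-Co3, mt-Nd4, the metallothioneins Mt1 and Mt2, Tmem212 and Rarres2. That fit called mt-Nd2, mt-Co1, mt-Co2, mt-Atp6 and mt-Co3 in neurons, and the same genes with mt-Nd4 in oligodendrocytes. DESeq2 called mt-Co3 in neurons (log2 change 0.50, adjusted p = 0.0472). The calls are thus not particular to oligodendrocytes.

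Gene lists that bear on the treatment were then read in the vascular endothelium, the class with the largest Malat1 difference; Malat1 aside, 0 genes of 22 lists passed in any class in edgeR over the 11 libraries, and the values that follow are levels or changes that did not pass in that fit. DESeq2 called 1 (0.0468% of 2136 tests, beside 0.00898% of all), Homer1 in neurons, an activity-induced synaptic scaffold gene (log2 change 0.36, adjusted p = 0.0472). The blocked edgeR fit of the 6 libraries alone called 9 in the classes, among them Arc and Mt1 in neurons, Hspb1 and Sgk1 in oligodendrocytes, and Celf2, Meg3, Nrg1 and Rbfox1 in nuclei labelled pericytes, chosen for mention after their values were seen. That is 0.477% of 1887 tests of list genes, beside 0.123% of all gene tests in that fit and 0.814% in pericytes alone. Of those named, Arc was lower there and the others higher. Without the filter on low counts 5 list genes passed, all of them among those named, or 0.146% of 3418 tests beside 0.0539% of all. Nothing particular to the lists is read from these shares. Of the blood-brain barrier genes, 26 of 27 were tested and 21 had a positive log2 change, with a median of 0.16 beside -0.01 for all genes of the class. Mfsd2a, the lipid transporter that restrains transcytosis at this barrier, had 138, 150 and 98.2 CPM in the control and 225, 220 and 191 in the treated libraries, without overlap (log2 change 0.71, adjusted p = 0.999 in edgeR). Endothelial markers as a sum were also higher in these libraries, as given above, and neuron markers were 1198 to 1530 CPM in the control and 856 to 1199 in the treated endothelium. The part of these markers in the list's values was not tested.

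The transferrin receptor and iron genes were of interest because the control antibody binds the receptor and the conjugate does not. Tfrc, the mouse receptor gene, had 237, 433 and 270 CPM in the control endothelium and 274, 303 and 374 in the treated one, with a log2 change of 0.08 (adjusted p = 0.999). Of 9 genes of the list tested there 6 were above 0, with a median of 0.16. Ireb2, the iron-responsive element-binding protein that stabilises Tfrc messenger RNA, had 39.5, 66.6 and 24.6 CPM against 83.2, 82.5 and 76.4 (log2 change 0.98, adjusted p = 0.999), from 3 to 17 UMIs per library. Over all nuclei Tfrc was 37.6, 28.0 and 39.1 CPM in the control and 30.5, 32.8 and 37.1 in the treated libraries. Whether the counts of Tfrc include transcripts of the human knock-in is not given in the sources used here.

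Bace1, the target of the control antibody, encodes the protease that makes the first cut in amyloid precursor protein. Its transcript level over all nuclei was 39.3, 33.6 and 36.5 CPM in the control and 36.4, 35.6 and 39.0 in the treated libraries, a log2 change of 0.00 (adjusted p = 0.997 in edgeR). Among 10 genes of the amyloid processing list tested in the endothelium, Nrg1, a neuregulin growth factor, had the smallest p, with 171, 183 and 196 CPM against 83.2, 68.8 and 68.7. Its groups did not overlap, and the log2 change was -1.26 (adjusted p = 0.576), beside the lower neuron markers of these nuclei. In nuclei labelled pericytes, where neuron markers were higher, Nrg1 was higher in the fit of the 6 libraries (1.43, adjusted p = 0.00138). App itself gave 0.04.

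Genes next to Malat1 and other abundant nuclear long non-coding RNAs were read as a check on the locus. In the endothelium 10 were tested and 1 had a positive change, with a median of -0.32. Malat1 itself is in this list but is left out of these values. Neuron markers were lower in these treated nuclei, as given above, and their part in the list's values was not tested. Neat1, the neighbouring nuclear RNA that builds paraspeckles, had 277, 183 and 491 CPM against 411, 206 and 328, a log2 change of -0.01. Meg3, an imprinted long non-coding RNA abundant in neurons, had 481, 433 and 818 against 235, 468 and 527 (log2 change -0.64, adjusted p = 0.999). In oligodendrocytes the list's median was 0.03 over 16 genes, and Neat1 gave -0.10.

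Lists of innate sensing and stress gave 0 calls in edgeR over the 11 libraries. The nucleic acid sensing and interferon list had a median log2 change of 0.04 over 13 genes in the endothelium and of 0.17 over 27 genes in all nuclei, where the median of all genes was below 0.01 in size. Homeostatic microglial genes had 12 of 13 values above 0 in microglia, with a median of 0.09. Myelin genes in microglia had 3 of 14 above 0, with a median of -0.52, and in oligodendrocytes 11 of 18 above 0, with a median of 0.03. The smallest p in the stress lists in oligodendrocytes belonged to Hspb1, a small heat shock protein (log2 change 1.31, adjusted p = 0.673 in edgeR). In the blocked fit of the 6 libraries alone Hspb1 passed (1.34, adjusted p = 0.0175), and without the filter on low counts it passed too (0.0278).

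A few genes had the smallest p of their class, or the smallest among its higher genes, without passing in edgeR over the 11 libraries. In the endothelium Lsamp, an adhesion gene, had 1271, 899 and 900 CPM in the control and 509, 316 and 550 in the treated libraries. Its log2 change was -1.18 (adjusted p = 0.102 in edgeR), and it passed in the blocked edgeR fit of the 6 libraries alone (adjusted p = 1.64e-04). Endothelial Lsamp was also below every control library with OTV:Malat1 (254, 535 and 768 CPM) and with Malat1 ASO (323 and 393). Control Lsamp was 11160 CPM in astrocytes and 4875 in neurons. Astrocyte markers in the endothelium averaged 821.2 and 715.6 CPM, beside the lower neuron markers given above, and their part was not tested. Scarf1, a scavenger receptor of endothelial cells, had 46.1, 66.6 and 16.4 CPM against 142, 110 and 99.3 (log2 change 1.56, adjusted p = 0.562). In nuclei labelled glia March1, a ubiquitin ligase of immune cells, was lowest by p, with 146, 148 and 201 CPM against 79.7, 50.0 and 98.7 (log2 change -1.12, adjusted p = 0.0718, and 0.0142 in the fit of the 6 libraries). March1 was also below the control of its batch with OTV:Malat1 (89.4, 118 and 153 CPM) and Malat1 ASO (105 and 100.5). Neuron markers in these nuclei summed to 2291 to 3575 CPM in the control and 1697 to 2472 in the treated libraries. Ependymal markers averaged 1868 and 2293 CPM, choroid plexus markers 4622 and 5015, and microglial markers 269.1 and 263.2. The part of these markers in the March1 value was not tested. In neurons the unnamed locus Gm47423 had 97.4, 70.4 and 86.9 CPM against 120, 116 and 111 (log2 change 0.46, adjusted p = 0.177). It passed in neurons in DESeq2 (4.65e-04) and in the fit of the 6 libraries (0.0285), and over all nuclei it was the 1 gene that DESeq2 called. Neurons had 124, 111 and 131 CPM of it with OTV:Malat1 and 151 and 146 with Malat1 ASO. The control libraries were thus the lowest of all, and the difference was not particular to nonTV:Malat1.

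The share of nuclei in each class was compared last. Neurons made up 70.7% ± 4.29 (SD, n = 3) of control and 66.3% ± 5.45 (SD, n = 3) of treated nuclei, and astrocytes 10.7% ± 1.74 and 13.9% ± 3.99. Nuclei labelled glia made up 1.30% ± 0.318 and 1.72% ± 0.250 (SD, n = 3), and microglia 0.789% ± 0.197 and 1.11% ± 0.244, differences larger than the SD of either group. In edgeR on nuclei per class with batch as a block, 0 of 10 classes passed (0.0%), with adjusted p from 0.535 to 0.915 and 0 at an unadjusted p under 0.05. In a fit of the 6 libraries alone 3 of the 10 passed, astrocytes, glia and microglia, all with more nuclei after nonTV:Malat1. Vascular endothelium gave 125, 58 and 109 nuclei in the control and 134, 67 and 122 in the treated libraries.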

How the data were processed

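Nuclei were captured in droplets and sequenced by the authors; Cell Ranger 5.0.0, Seurat 4 and the mm10 build stand in the submitters' processing notes. The deposited matrices hold whole UMI counts per gene and nucleus, and the deposited nucleus table gives class, cluster, batch, doublet call, a percent of mitochondrial UMIs (not used for results) and a class prediction score. Counts were summed per library and class, keeping classes with at least 20 nuclei per library in at least 2 libraries per group. edgeR 4.0.16 (TMM, filterByExpr, quasi-likelihood test) was fitted to all 11 libraries with the replicate number as a block, since same-numbered libraries share a batch in the deposited table; their deviations from the group means correlated at 0.908, 0.835 and 0.888 over 7573 genes. p-values were Benjamini-Hochberg adjusted over all genes of a fit, with a threshold of 0.05. Differences from neurons used limma 3.58.1 on log2 CPM with a prior count of 2; DESeq2 1.42.0 was an alternative. Folds are on the scale of the fitted counts. The labels do not say that each library is a separate mouse, so p-values measure the spread between libraries, which may be technical; counting intervals cover counting error only. Named genes were all called genes (at most 30), Malat1, the smallest p in each direction of a class without calls, and the smallest p of each list in the vascular endothelium. Members and lists were chosen with earlier results of these data known. The edgeR and limma fits were tested on simulated data. Any 2 of the 6 libraries shared 13 to 39 cell barcodes, at most 0.438% of a library. R 4.3.3 and Python 3.11.15 were used. Some named genes are not reported here.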

Additional observations from a re-analysis of the deposited data

Results flagged for a closer look

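The difference in Malat1 between nonTV:Malat1 and ATV:BACE1 was set against that in neurons, a reference chosen with earlier results of these data known. Against the neurons of the same libraries it was larger by -0.45 (log2) in the vascular endothelium, by -0.35 in oligodendrocytes and by -0.21 in microglia (limma with batch as a block, adjusted p = 0.00731, 2.27e-04 and 2.27e-04 over 7 classes), and lower in 3 of 3 batches in each. Without the block 0 of the 3 passed (0.0631, 0.327 and 0.119). With nuclei under 1000 UMIs left out only the endothelium passed (0.0263), and without ATV:BACE1 replicate 1 or 4 the endothelium did not (0.0745 and 0.0722). Microglia showed the smallest of the 3 differences and the smallest standard error, 0.0416. Neuron markers in microglia averaged 1804 CPM in the control and 1346 in the treated libraries. Oligodendrocyte markers averaged 2905 and 2490 there, and astrocyte markers 697.5 and 750.8. Neurons, oligodendrocytes and astrocytes had larger Malat1 shares in the control (7.62%, 9.04% and 10.1%) than microglia (5.52%). In the endothelium, with a control share of 6.24%, neuron markers averaged 1329 and 1056 CPM. Astrocyte markers there averaged 821.2 and 715.6, and oligodendrocyte markers 869 and 1040. In oligodendrocytes neuron markers averaged 1357 and 1183 CPM and astrocyte markers 590 and 662.9. The control Malat1 share of oligodendrocytes was above that of neurons and below that of astrocytes. The part of these markers in the 3 differences was not tested.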

How the results depend on the processing

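The same-numbered libraries deviated together, and without the replicate block 0 genes passed over the classes and 0 classes differed from neurons over all genes, against 20 genes and 1 class with the pairing in the fit. With the p adjusted over the classes, Malat1 passed in 0 classes without the block against 2 with it, and 0 against 3 differed from neurons; with nuclei under 1000 UMIs left out these were 1 and 1, and with 1 library left out 0 to 3 and 2 to 3. Fitting the 6 libraries alone gave 10 genes over all nuclei, 84 over the classes, 3 classes differing in number of nuclei (astrocytes, glia and microglia), 2 classes differing from neurons and a call for Malat1 in vascular endothelium (-0.4346). Without the filter on low counts 92 genes passed, with Malat1 in vascular endothelium (-0.3666) and Malat1 in oligodendrocytes (-0.3362) among them. DESeq2 called 1 gene over all nuclei and 7 over the classes. Leaving out nuclei under 1000 UMIs gave 9 genes and 0 classes differing from neurons, a prior count of 0.5 gave 0 such classes, and leaving out called doublets gave 5 genes. Leaving out 1 library in turn gave 4 to 72 genes and 0 to 2 classes differing from neurons, and Malat1 in oligodendrocytes from -0.4245 (called, without ATV:BACE1 replicate 1) to -0.2428. Among the log2 changes of Malat1 and of the named genes, signs turned for Malat1 in all nuclei with total counts (0.0075) and over left-out libraries (-0.0946 to 0.0687). Over left-out libraries they also turned for Malat1 in astrocytes (-0.0721 to 0.1563) and neurons (-0.0579 to 0.0864). Malat1 in leptomeningeal cells turned as well (-0.0577 to 0.0971, -0.0015 without doublets, -0.0599 in the main cluster, -0.0164 as the mean of nucleus shares). Kcnip4 in pericytes turned without doublets (-0.1056, against 1.62). In the vascular endothelium 4 genes named from the lists and not described above turned over left-out libraries: Apoe (-0.0287 to 0.2912), Rgs5 (-0.0407 to 0.2319), St18 (-0.4486 to 1.4969) and Xbp1 (-0.4668 to 0.0757). The difference in low nuclei turned in astrocytes (-0.968, and 3.18 without ATV:BACE1 replicate 1) and in microglia (1.57, and -1.11 without nonTV:Malat1 replicate 1). The cause was not tested. The restriction to a class's main cluster was chosen after seeing the data. The vascular and microglial classes rest on 40 to 134 nuclei per library, and small differences there may not have been detectable. Malat1 in the vascular endothelium, oligodendrocytes, microglia, pericytes and glia stayed below 0 in every alternative run.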

Other observations

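Growth hormone transcripts (Gh) were counted 122 times in the replicate 5 library of nonTV:Malat1, at 3.58 CPM, and in none of the other 5 libraries compared. Outside this comparison the replicate 5 libraries of OTV:Malat1 and Malat1 ASO had 0.389 and 1.12 CPM. Gh is made chiefly by pituitary somatotrophs. It had the smallest p over all nuclei, with an adjusted p of 0.408 in edgeR.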
